A study of Mus musculus with 12 samples.

Results

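The mitochondrial ribosomal protein genes were taken as all genes whose symbol starts with Mrpl or Mrps followed by a number. They were read from the probe annotation of 12 Illumina Mouse-6 BeadChip arrays of TRAMP-C cells, a wild-type line derived from the prostate tumour of TRAMP mice on the C57BL6 strain. The rule gave 119 probes of 73 genes among 45281 probes on the array. Probes were kept where 2 or more arrays detected them at p under 0.01, which 114 of the 119 did. This left all 73 genes, among 17436 probes and 9609 genes in the whole series. Of the 73 genes, 47 were counted with the large subunit and 26 with the small one. Mrps30, a large-subunit protein in spite of its symbol, is among the 47. Mrps18a, which structures also place in the large subunit, is counted by its symbol among the 26. Detection was on all 12 arrays for 72 of them. The exception was Mrpl45, which anchors the ribosome to the inner membrane and was detected on 3 arrays.

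Cells were nucleofected with empty pcDNA (control), FoxA2, HIF-1a or HIF-1a plus FoxA2. After 48 h they were kept for 12 h in normoxia or at 1% oxygen (hypoxia), and 500 ng of total RNA was labelled. Each of the 4 hypoxia groups had 2 arrays, and each of the 4 normoxia groups had 1 array, always numbered replicate 1. Whether duplicate arrays came from separate cultures is not said in the labels. The p-values thus reflect array-to-array spread, possibly technical.

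The mitochondrial ribosome translates the few messages encoded in mitochondrial DNA, all of them for subunits of the respiratory chain and ATP synthase. Its RNAs come from mitochondrial DNA, whereas every one of its proteins is encoded in the nucleus, made in the cytosol and imported. Part of the proteins descend from bacterial ribosomal proteins and the rest were added in mitochondria. In tumour cells HIF-1 is known for shifting metabolism from respiration to glycolysis, and nuclear respiratory factors, ETS factors of the GABP type and PGC-1 coactivators are known to act on nuclear genes of mitochondrial function.

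The labels were checked on the transfected genes and on HIF targets. Foxa2 log2 intensity was 9.27 to 10.98 on the arrays with the FoxA2 plasmid and 6.14 to 7.07 on the others, and Hif1a was 11.98 to 13.18 with its plasmid and 9.06 to 9.64 without it. Vegfa, the angiogenic HIF target, lay at 11.80 to 12.42 in hypoxia and at 10.35 to 10.48 in normoxia, so both oxygen groups were separate. Mean probe intensity was 298 to 559 per array, the highest being FOXA2+HIF-1a hypoxia replicate 1, and 15322 to 17182 probes were detected. Of 8 immune markers 2 were measured, Csf1r (detected on 5 arrays) and Cd14, and the summed intensity of the immune probes was 446 to 520 in normoxia and 472 to 1088 in hypoxia. Both were called higher in hypoxia in the fit used below, where 14.4% of all genes were. Cd14 rose by 0.45 ± 0.13 (adjusted p = 0.0204) and was not called once replicate was a term in the fit (0.36, adjusted p = 0.0578). Csf1r was detected on 0 of 4 normoxia and 5 of 8 hypoxia arrays. It thus passed the detection filter only through hypoxia arrays, and its call is not used as a result. None of the 5 endothelial markers passed detection. The simple epithelial keratin Krt8 was detected on 8 arrays and the cadherin Cdh1 on 11, while the Krt18 probe was detected on 0 and Epcam and Pbsn were not measured here. The part of these cell markers in the results was not tested.

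Promoters are shown for the genes on which the hypoxia result turns: the 3 with the largest decreases shared by all transfections (Mrps2, Mrpl16 and Mrpl55), the one with the smallest p-value (Mrpl17), the one that rose (Mrpl14), and Mrpl43, whose start lies 116 bases from that of the mitochondrial helicase gene Twnk on the other strand. Mrpl17 and Mrpl43 were added to the set with their values known. Each window runs from 250 bases before to 50 after the gene start in RefSeq, build GRCm38.p6, 5′ to 3′ on the gene's strand. Capitals mark the ETS core CCGGAAG, the NRF1 motif (GCGCA and GCGC with any 1 base between), the E-box CACGTG and the hypoxia core ACGTG, found on either strand. The E-box contains the hypoxia core.
Mrps2, chr2:28467816-28468115, plus strand: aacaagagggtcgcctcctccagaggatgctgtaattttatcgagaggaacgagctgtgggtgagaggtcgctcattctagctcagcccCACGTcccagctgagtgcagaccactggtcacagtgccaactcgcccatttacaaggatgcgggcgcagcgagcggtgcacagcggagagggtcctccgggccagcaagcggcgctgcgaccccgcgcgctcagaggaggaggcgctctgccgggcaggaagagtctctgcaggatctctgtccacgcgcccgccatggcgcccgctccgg
Mrpl16, chr19:11770165-11770464, plus strand: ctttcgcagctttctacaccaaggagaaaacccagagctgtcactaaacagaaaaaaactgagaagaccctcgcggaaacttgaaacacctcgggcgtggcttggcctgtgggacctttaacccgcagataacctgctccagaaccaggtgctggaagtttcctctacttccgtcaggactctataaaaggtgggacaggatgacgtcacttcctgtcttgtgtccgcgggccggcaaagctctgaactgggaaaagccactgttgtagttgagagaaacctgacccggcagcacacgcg
Mrpl55, chr11:59202236-59202535, plus strand: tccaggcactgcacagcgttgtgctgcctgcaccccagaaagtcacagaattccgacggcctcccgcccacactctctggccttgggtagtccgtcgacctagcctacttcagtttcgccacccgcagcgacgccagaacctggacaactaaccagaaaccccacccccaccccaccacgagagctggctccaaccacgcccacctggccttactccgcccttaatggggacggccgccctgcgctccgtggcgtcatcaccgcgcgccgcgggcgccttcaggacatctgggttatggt
Mrpl17, chr7:105811038-105811337, minus strand: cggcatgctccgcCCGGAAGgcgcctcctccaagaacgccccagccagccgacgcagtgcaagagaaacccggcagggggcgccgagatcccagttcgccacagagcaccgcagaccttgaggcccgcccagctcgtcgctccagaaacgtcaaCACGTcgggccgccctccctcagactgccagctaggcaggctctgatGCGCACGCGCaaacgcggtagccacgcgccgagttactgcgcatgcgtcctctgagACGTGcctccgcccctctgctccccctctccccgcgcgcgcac
Mrpl43, chr19:45006393-45006692, minus strand: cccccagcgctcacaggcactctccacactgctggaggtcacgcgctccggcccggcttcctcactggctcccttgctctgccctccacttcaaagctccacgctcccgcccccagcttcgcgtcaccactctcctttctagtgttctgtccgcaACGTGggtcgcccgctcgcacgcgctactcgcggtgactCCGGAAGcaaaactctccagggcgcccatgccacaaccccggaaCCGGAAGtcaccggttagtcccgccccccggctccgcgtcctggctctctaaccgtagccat
Mrpl14, chr17:45686099-45686398, plus strand: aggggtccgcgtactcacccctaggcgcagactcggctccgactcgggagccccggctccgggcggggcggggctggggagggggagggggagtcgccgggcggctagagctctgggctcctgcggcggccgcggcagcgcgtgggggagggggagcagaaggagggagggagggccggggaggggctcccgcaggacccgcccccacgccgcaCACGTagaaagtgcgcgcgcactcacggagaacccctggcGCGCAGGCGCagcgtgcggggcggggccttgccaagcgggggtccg
The Mrps2 window held 1 hypoxia core, at position -161 from the gene start, and those of Mrpl16 and Mrpl55 held none of the 4 motifs. In Mrpl17 the ETS core began at -237, the NRF1 motif at -49 and the hypoxia core at -96 and 8. Mrpl43 carried the ETS core at -56 and -12 and the hypoxia core at -95. Mrpl14 held the hypoxia core at -36 and the NRF1 motif at 5. A match describes letters in the window, not a bound site.

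Across the family, 65 of the 73 genes had RefSeq promoters, 71 windows in all. The ETS core was in the promoter of 26 of the 65 genes (40.0%), against 21.0% of the 7833 tested genes with a promoter and 9.93% of all 27025 genes in the table. The NRF1 motif was in 18.5% of the family, 12.2% of tested genes and 5.19% of all genes. The hypoxia core was in 24.6% of the family and 30.4% of tested genes, and the E-box in 7.69% and 12.2%. These shares are descriptions with no test. Many of the promoters also faced another gene: 24 of the 65 (36.9%) had a start on the opposite strand within 1000 bases upstream, against 20.4% of tested genes and 12.3% of all genes. Mrpl46 and Mrps11 face each other across 42 bases.

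In hypoxia the messages of the mitochondrial ribosome were mostly lower. Of the 73 genes, 29 fell, 1 rose and 43 did not pass an adjusted p of 0.05 (limma with transfection and oxygen as terms, 12 arrays, Benjamini-Hochberg over 9609 genes). The 29 are 39.7% of the family, where 15.9% of all genes tested were called lower, and the 1 that rose is 1.37%, where 14.4% of all genes were called higher. The median log2 change was -0.229, against -0.0201 over all genes, and 63 of 73 values lay below 0 (86.3%, against 52.4% of all genes). Fewer cells of a type and less RNA per cell cannot be told apart in such bulk RNA. The decreases were small, from 1.23-fold to 1.88-fold. The ranked plot of the 73 changes shows the shift.

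**Figure D1:**
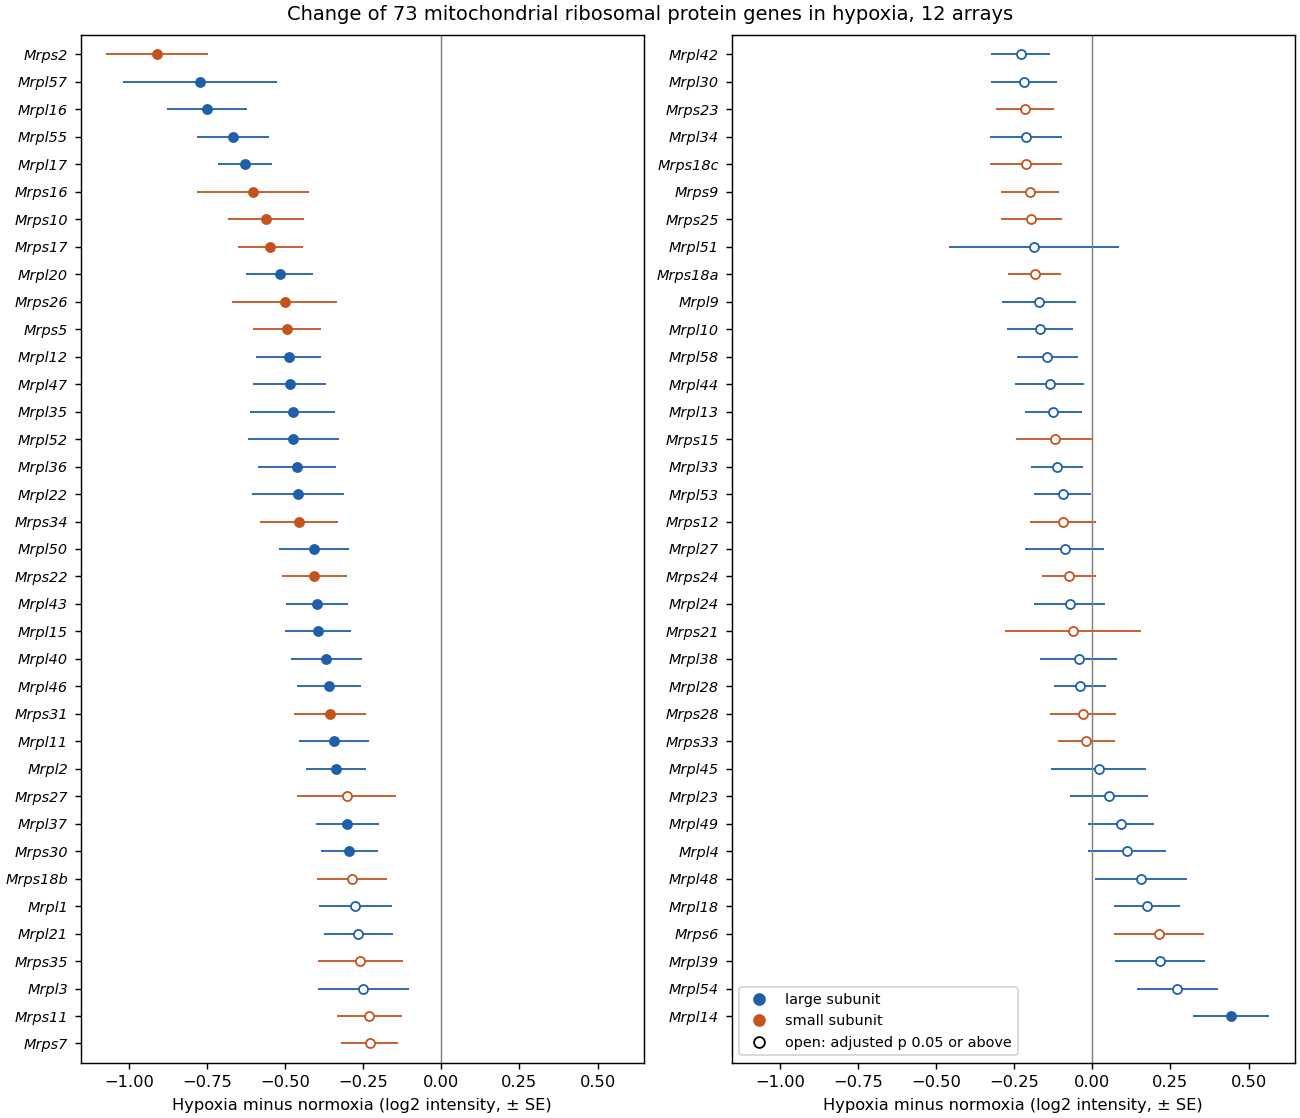
Log2 change in hypoxia of each of the 73 genes, ordered from the largest decrease (top left) to the largest increase (bottom right), with bars of 1 standard error from the fit over 12 arrays. Blue marks the large and orange the small subunit by symbol group (Mrps30 is blue). Filled points have an adjusted p under 0.05: 29 lie below 0 and 1, Mrpl14, above.

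Every normoxia array was replicate 1, so a difference between the hypoxia replicates enters this comparison. Once replicate was a term in the fit, 20 genes fell (16.1% of all genes) and 1 rose (13.9%). Of these 20, 19 were among the 29, and the other was Mrps9, a small-subunit protein with a bacterial homologue (-0.28, adjusted p = 0.0296). Over all genes, 1229 of the 1532 called lower kept their call with this term. On the replicate 1 arrays alone, 4 against 4, 18 fell (14.8% of all genes) and 0 rose (12.9%), while Mrpl14 gave 0.29 (adjusted p = 0.0749). With the slide as a block 22 fell (15% of all genes). Called lower in all of these fits were 16 of the 29 (10.9% of all genes). Over all genes 1048 of the 1532 were, so the family's calls were not kept more often than calls in general. The replicate term and the replicate 1 arrays alone give the same change for each gene and differ only in its error. They are thus not separate checks.

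Mrps2, a homologue of bacterial S2 on the solvent side of the small subunit, had the largest decrease. Its log2 intensity went from 8.92 in normoxia to 7.92 and 7.74 in hypoxia in control cells, from 8.71 to 8.15 and 7.94 with FOXA2, from 8.92 to 8.18 and 7.93 with HIF-1a, and from 8.67 to 8.13 and 7.17 with both. All 8 hypoxia arrays lay below all 4 normoxia arrays, and FOXA2+HIF-1a replicate 2 was the lowest. The change was -0.91 ± 0.16 (SE; 1.88-fold lower, adjusted p = 0.00196).

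Mrpl16 is the homologue of bacterial L16, which lies beside the tRNA binding sites of the large subunit. Its log2 intensity was 9.25 in normoxia and 8.86 and 8.91 in hypoxia in control cells, 9.38 and then 8.70 and 8.66 with FOXA2, 9.49 and then 8.35 and 8.50 with HIF-1a, and 9.43 and then 8.81 and 8.31 with both. The oxygen groups did not overlap, and the control hypoxia arrays were the highest of the 8. The change was -0.75 ± 0.13 (1.68-fold lower, adjusted p = 0.00156).

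Mrpl55, which is counted with the bacterial L31 homologues, fell by 0.67 ± 0.12 (1.59-fold, adjusted p = 0.00166). Its arrays read 7.76 in normoxia and 7.45 and 7.21 in hypoxia in control cells, 7.88 and then 7.38 and 7.35 with FOXA2, 7.88 and then 6.85 and 7.27 with HIF-1a, and 8.01 and then 7.08 and 7.13 with both. The groups were again separate, with HIF-1a hypoxia replicate 1 lowest.

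Mrpl17, the L17 homologue, was the most even of the decreases. Its log2 intensity was 10.92, 11.16, 11.06 and 10.89 in normoxia (control, FOXA2, HIF-1a and both). In hypoxia the pairs were 10.38 and 10.33, 10.42 and 10.34, 10.59 and 10.34, and 10.29 and 10.33. The hypoxia arrays thus lay within a narrow band below every normoxia array. The change was -0.63 ± 0.09 (1.55-fold lower) and had the smallest adjusted p of the family, 0.00046.

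**Figure D2:**
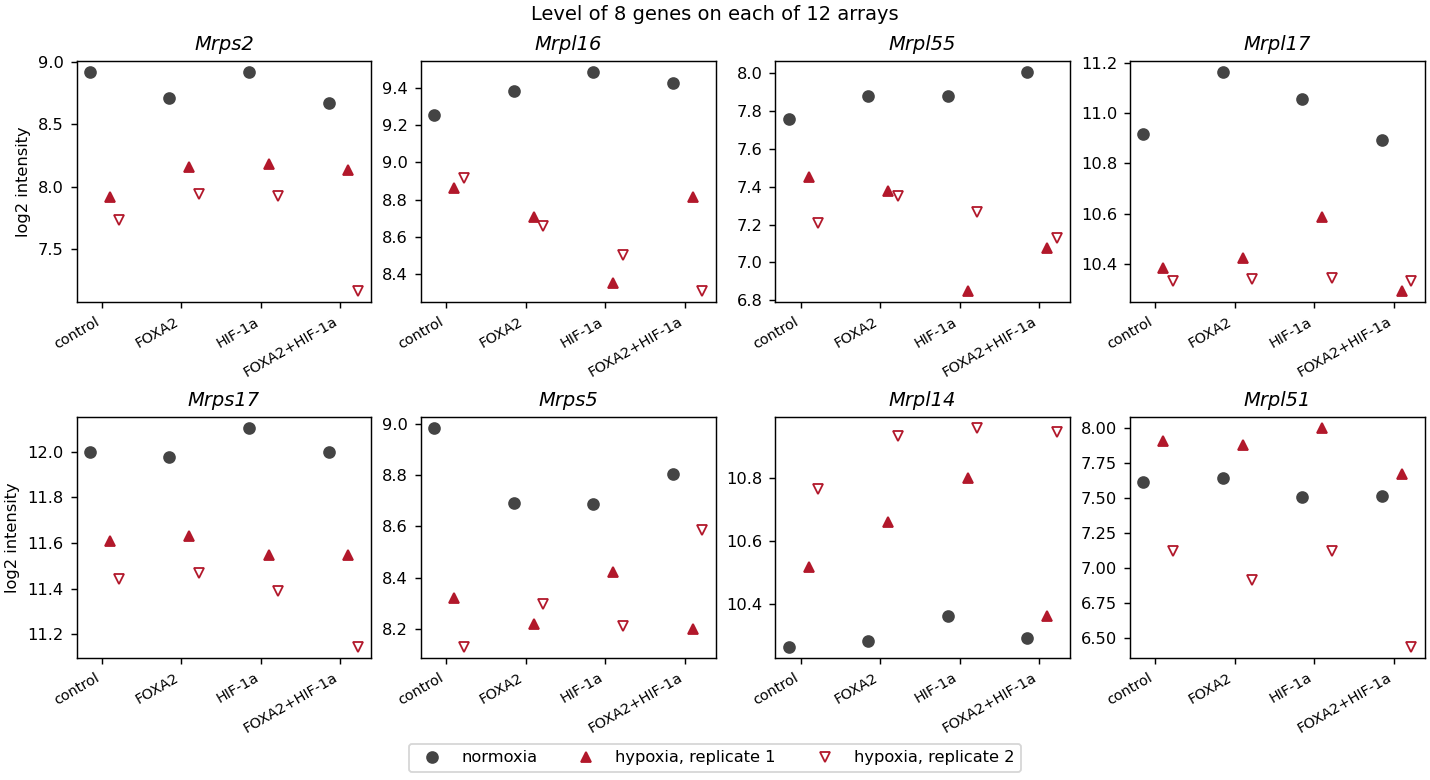
Log2 intensity of 8 genes on each of the 12 arrays, by transfection, with normoxia as grey circles and the hypoxia replicates 1 and 2 as filled and open red triangles; each panel has its own axis. In the 6 panels from Mrps2 to Mrps5 every hypoxia array lies below every normoxia array, Mrpl14 is higher in hypoxia within each transfection, and in Mrpl51 the replicates lie on opposite sides of normoxia.

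Of the decreases, 7 were called in all 14 other analyses and without any single array: Mrpl16, Mrpl17, Mrpl55, Mrps2, Mrps5, Mrps10 and Mrps17. How many of the calls over all genes would meet this was not counted, so the 7 are not a result about the family. Mrps17, the homologue of S17, lay at 11.98 to 12.10 in normoxia and 11.14 to 11.63 in hypoxia (-0.55 ± 0.10, adjusted p = 0.0027). Mrps10, a protein of the small-subunit head, lay at 10.71 to 10.86 and 9.74 to 10.42 (-0.56 ± 0.12, adjusted p = 0.00579), and all 3 of its detected probes were called lower. Mrps5, the homologue of S5 near the message entry channel, lay at 8.69 to 8.98 and 8.13 to 8.59 (-0.49 ± 0.11, adjusted p = 0.00628). Neither oxygen group overlapped the other in any of these, where 13.2% of all genes had every hypoxia array below every normoxia array. Mrpl12, Mrpl20 and Mrpl47 kept their calls without each array in turn, but not on slide 1 alone. Mrpl47 also lost its call with a mean per group.

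Over the family, all 8 hypoxia arrays lay below all 4 normoxia arrays in 21 genes (13.2% of all genes tested), and in 0 genes did they all lie above (11.3%). In 27 genes both hypoxia arrays were below the normoxia array of every transfection (18.1% of all genes). This held for 24 of the 29 calls (14.5% of all genes were called lower and met it). Over all genes it held for 1392 of the 1532 called lower, so the share among the family's calls was not the larger one. The exceptions among the calls were Mrpl57, Mrpl15, Mrpl40, Mrps31 and Mrpl37. In Mrpl57, Mrpl15, Mrpl40 and Mrps31 the array of HIF-1a hypoxia replicate 1 was above its normoxia array (7.23 against 6.99 in Mrpl57). In Mrpl37 the array that stood out was FOXA2+HIF-1a hypoxia replicate 1, at 10.72 against 10.71. Mrpl57 had the second lowest change, -0.77 ± 0.25, but its array values ran from 5.60 to 7.23 in hypoxia against 6.99 to 7.31 in normoxia, and it was not called once replicate was a term (-0.37, adjusted p = 0.0746).

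By role, the decreases were spread over both subunits: 20 of 47 large-subunit and 9 of 26 small-subunit genes fell, where 15.9% of all genes did. Of 28 large-subunit proteins with bacterial homologues, 12 fell and 1 rose (median -0.26), and of 19 specific to mitochondria 8 fell (-0.19). In the small subunit 5 of 17 with bacterial homologues fell (-0.21), and 4 of 9 specific to mitochondria (-0.30). No test was made between these groups, and the same 15.9% of all genes is the background to each count of decreases.

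In the L7/L12 stalk, which recruits the translation factors, Mrpl12 and Mrpl11 fell and Mrpl10, which anchors Mrpl12, did not pass. Mrpl12 lay at 11.02 to 11.14 in normoxia and 10.35 to 10.75 in hypoxia (-0.49 ± 0.10, adjusted p = 0.00533), and Mrpl11 at 8.92 to 9.13 and 8.32 to 8.79 (-0.34 ± 0.11, adjusted p = 0.0367). Both groups were separate in each gene, as in 13.2% of all genes in this direction. Mrpl10 overlapped, at 11.24 to 11.45 and 10.97 to 11.48 (-0.17 ± 0.10, adjusted p = 0.251).

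The central protuberance, the part of the large subunit that faces the head of the small one, had 4 of 8 genes called lower (15.9% of all genes): Mrpl52 (-0.47), Mrpl40 (-0.37), Mrpl46 (-0.36) and Mrps30 (-0.29). With replicate in the fit none of the 4 was called, at changes of -0.46, -0.25, -0.27 and -0.27 (adjusted p = 0.0521, 0.0916, 0.0568 and 0.0596). Mrpl18, Mrpl27, Mrpl38 and Mrpl48 did not pass and ranged from -0.09 to 0.17.

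Other large-subunit decreases with bacterial homologues were Mrpl20 (-0.52), Mrpl47 (-0.48), Mrpl35 (-0.48), Mrpl36 (-0.46), Mrpl22 (-0.46), Mrpl15 (-0.39) and Mrpl2 (-0.34). Mrpl22 is the homologue of a protein that lines the exit tunnel, and Mrpl2 that of one at the peptidyl transferase centre. With replicate in the fit Mrpl35 and Mrpl22 were not called, at -0.29 and -0.32 (adjusted p = 0.0553 and 0.113). Among mitochondria-specific large-subunit proteins, Mrpl50 (-0.41) and Mrpl43 (-0.40) kept their calls with the block, while Mrpl37 (-0.30) did not (-0.21, adjusted p = 0.127).

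Among small-subunit proteins, Mrps16, the S16 homologue, changed by -0.60 ± 0.18, which was -0.30 (adjusted p = 0.0346) with the block. Of those specific to mitochondria, Mrps34 (-0.45 ± 0.12) and Mrps22 (-0.41 ± 0.10) kept their calls with the block. Mrps26 (-0.50 ± 0.17) and Mrps31 (-0.36 ± 0.11) did not, at -0.45 and -0.25 (adjusted p = 0.0936 and 0.113).

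Mrpl14 was the one gene called higher. The protein lies on the face of the large subunit that meets the small one, where the assembly factor Malsu1 binds it. Its log2 intensity was 10.26 in normoxia and 10.52 and 10.77 in hypoxia in control cells, 10.28 and then 10.66 and 10.94 with FOXA2, 10.36 and then 10.80 and 10.96 with HIF-1a, and 10.29 and then 10.36 and 10.95 with both. Each hypoxia array was above the normoxia array of its own transfection, although FOXA2+HIF-1a replicate 1 lay marginally below the HIF-1a normoxia array. The change was 0.44 ± 0.12 (1.36-fold higher, adjusted p = 0.018), 0.29 (adjusted p = 0.045) with replicate in the fit, and the call was lost without the normoxia array of control, FOXA2 or HIF-1a. The next values above 0, Mrpl54 (0.27), Mrpl39 (0.22) and Mrps6 (0.21), did not pass.

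The 43 genes that did not pass include some, such as Mrps33 (-0.02 ± 0.09) and Mrpl28 (-0.04 ± 0.08), with changes smaller than their own error. A further 7 had an unadjusted p under 0.05, since 37 of the 73 genes did in all (50.7%, against 41.7% of all genes). Levels on the 4 normoxia arrays were close, with a range per gene of 0.03 to 0.67 and a median range of 0.16.

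For 27 genes several probes were detected. All probes of the 8 decreased genes with several lay below 0, and 5 of the 8 had at least 2 probes called lower. The probe that stood for each gene is among those counted. Its sign was fixed, and its call made likely, by the choice of these genes. The like share over all decreased genes with several probes was not counted. Probes disagreed in sign for Mrpl18, Mrpl49 and Mrps25. They also disagreed in size for Mrpl38, whose brighter probe gave -0.04 (adjusted p = 0.823 over 17436 probes) and whose dimmer probe gave -0.76 (adjusted p = 0.00474). Both further probes of Mrpl48 rose (0.33 and 0.40, adjusted p = 0.0302 and 0.0251) where the probe used gave 0.16. With replicate in the fit neither was called (0.23 and 0.27, adjusted p = 0.0876 and 0.0748). RefSeq lists pseudogenes for Mrpl23, Mrpl27 and Mrpl48, so probe signal for these may include near-identical copies.

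The median of the family was below its normoxia level on each hypoxia array. The median deviation of the 73 genes from their normoxia mean was -0.24, -0.20, -0.09 and -0.31 on the replicate 1 arrays of control, FOXA2, HIF-1a and both, and -0.28, -0.29, -0.32 and -0.23 on the replicate 2 arrays. On the normoxia arrays it was -0.01 to 0.02. HIF-1a hypoxia replicate 1 therefore stood closest to normoxia. On that array the median was -0.03 for the large-subunit genes and -0.23 for the small-subunit genes. Over all genes the medians of the hypoxia arrays ran from -0.09 (FOXA2+HIF-1a replicate 1) to 0.02 (HIF-1a replicate 1).

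**Figure D3:**
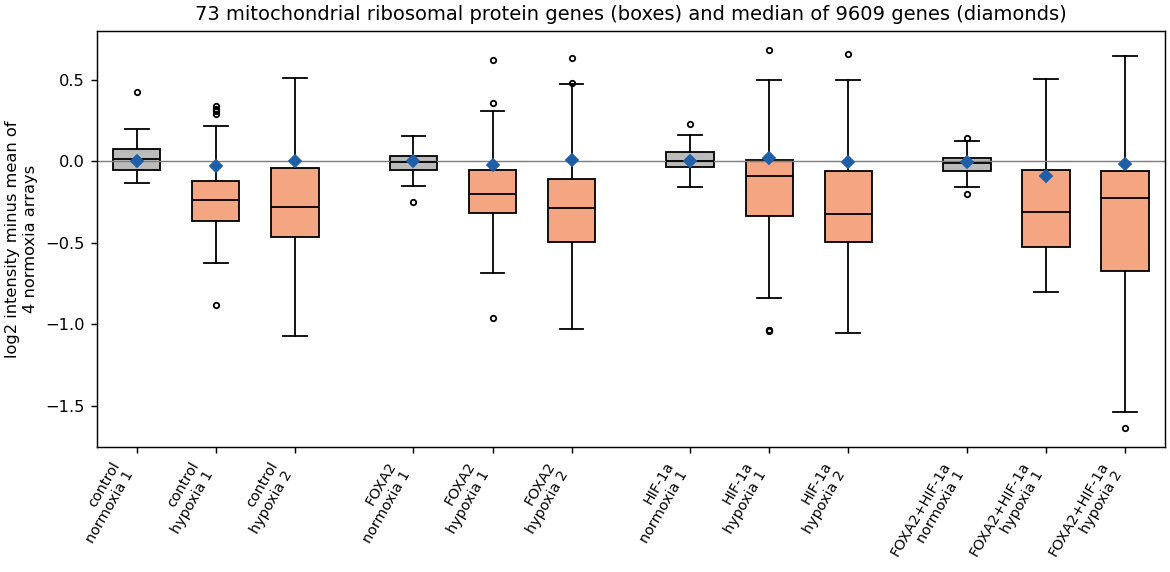
Deviation of the 73 genes from their own mean over the 4 normoxia arrays, per array. Boxes span the quartiles with the median as a line, whiskers reach the farthest gene within 1.5 box lengths and circles are genes beyond them; diamonds are the median of all 9609 genes. The box medians of the 8 hypoxia arrays lie between -0.09 and -0.32 and those of the normoxia arrays near 0.

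Each transfection was next taken alone, 2 hypoxia arrays against 1 normoxia array, in a fit of 8 group means where the single normoxia array is taken to have the spread of the duplicated groups. The family's median was -0.26 in control, -0.25 in FOXA2, -0.21 in HIF-1a and -0.27 in FOXA2+HIF-1a cells, against -0.05 to -0.01 over all genes. Values lay below 0 in 64, 58, 57 and 60 of the 73 genes (51.9%, 51.1%, 50.7% and 54.7% of all genes). These comparisons share no arrays, since each transfection has its own normoxia array. Limma called 0 genes of the family in each, where 0.656%, 0.687%, 0.76% and 0.614% of all genes were called, and the unadjusted p was under 0.05 for 3, 2, 5 and 10 (9.24%, 9.46%, 12.4% and 13.2% of all genes). Mrps5 (-0.76 ± 0.25), Mrps2 (-1.09 ± 0.38) and Mrpl17 (-0.56 ± 0.22) had the smallest p in control cells. With FOXA2 they were Mrpl17 (-0.78), Mrpl16 (-0.70) and Mrpl39 (0.61), with HIF-1a Mrpl16 (-1.06), Mrpl55 (-0.82) and Mrpl17 (-0.59), and with both Mrpl55 (-0.90), Mrpl16 (-0.87) and Mrps10 (-0.86).

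The difference of these responses from the control response was tested for each transfection with limma, and 0 genes of the family passed, as did 0% of all genes. The unadjusted p was under 0.05 for 0, 0 and 1 gene with FOXA2, HIF-1a and both (0.114%, 0.323% and 0.739% of all genes). The 1 gene was Mrpl4, the homologue of a protein of the exit tunnel. Its log2 intensity was 8.83 in normoxia and 8.58 and 8.75 in hypoxia in control cells, and 8.53 in normoxia and 9.15 on both hypoxia arrays with FOXA2+HIF-1a. Its response differed from control by 0.79 ± 0.31 (adjusted p = 1.00). For Mrpl16 the response with HIF-1a differed from control by -0.69 ± 0.37 (adjusted p = 1.00). With standard errors of about 0.37 for the median gene, differences of the size of the decreases themselves were not detectable here.

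The transfections were also compared with one another in hypoxia, where each had 2 arrays. FOXA2 against control, HIF-1a against control, both against control and the interaction of the factors gave 0 calls in the family and 0% over all genes in limma, and an unadjusted p under 0.05 for 0, 0, 2 and 0 genes of the family (0.219%, 0.853%, 4.5% and 2.53% of all genes). The members' medians were 0.03, 0.05, -0.06 and -0.13. Mrpl27 and Mrpl4 were the pair with an unadjusted p under 0.05. Mrpl27 lay at 10.39 and 10.40 in control hypoxia and at 9.99 and 9.54 with both factors (-0.62 ± 0.20, adjusted p = 0.966), and Mrpl4 was higher with both factors (0.48 ± 0.18, adjusted p = 0.966). With FOXA2 alone the smallest p-values belonged to Mrpl39 (0.30 ± 0.24), Mrpl45 and Mrps6 (-0.27 ± 0.25), and with HIF-1a to Mrpl16 (-0.46 ± 0.21), Mrps6 (-0.55 ± 0.25) and Mrpl18 (0.32 ± 0.19). In the interaction they belonged to Mrps6 (0.82 ± 0.36), Mrpl21 (-0.58 ± 0.27) and Mrpl45. No size is given for Mrpl45, which was not detected on most arrays.

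The hypoxia replicates differed for 9 genes: 7 were lower and 2 higher in replicate 2, in a fit with transfection, oxygen and replicate. Over all genes 12.3% were lower and 13.2% higher. The largest was Mrpl51, a large-subunit protein specific to mitochondria. It lay at 7.50 to 7.64 in normoxia, and the hypoxia arrays of replicate 1 read 7.90, 7.88, 8.0 and 7.67 for control, FOXA2, HIF-1a and both, where those of replicate 2 read 7.12, 6.91, 7.12 and 6.44. Every replicate 1 array was thus above normoxia and every replicate 2 array below it (-0.96 for replicate 2 against 1, adjusted p = 0.000188). The oxygen comparison gave Mrpl51 -0.19 ± 0.27, and 0.30 (adjusted p = 0.0739) with the replicate as a block.

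Mrps21, the S21 homologue, split in the same direction, with replicate 1 hypoxia arrays at 9.34 to 10.07, those of replicate 2 at 8.87 to 9.16 and normoxia at 9.25 to 9.53 (-0.69, adjusted p = 0.00346). Mrpl57 (-0.81), Mrps16 (-0.60), Mrpl35 (-0.38), Mrpl47 (-0.29) and Mrpl50 (-0.28) were lower in replicate 2 and were also among the decreases in hypoxia. Mrpl23 (0.36, adjusted p = 0.0112) and Mrpl14 (0.32, adjusted p = 0.0333) were higher in replicate 2. Neither was called with median scaling (0.20 and 0.16, adjusted p = 0.408 and 0.376) or in a fit of the hypoxia arrays alone (adjusted p = 0.055 and 0.103). In that fit Mrpl35, Mrpl47 and Mrpl50 were not called either (adjusted p = 0.0578, 0.132 and 0.115), nor was Mrpl50 with median scaling (adjusted p = 0.0768). In control, FOXA2 and HIF-1a cells the 2 hypoxia replicates were on different slides, and in FOXA2+HIF-1a cells on the same slide.

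**Figure D4:**
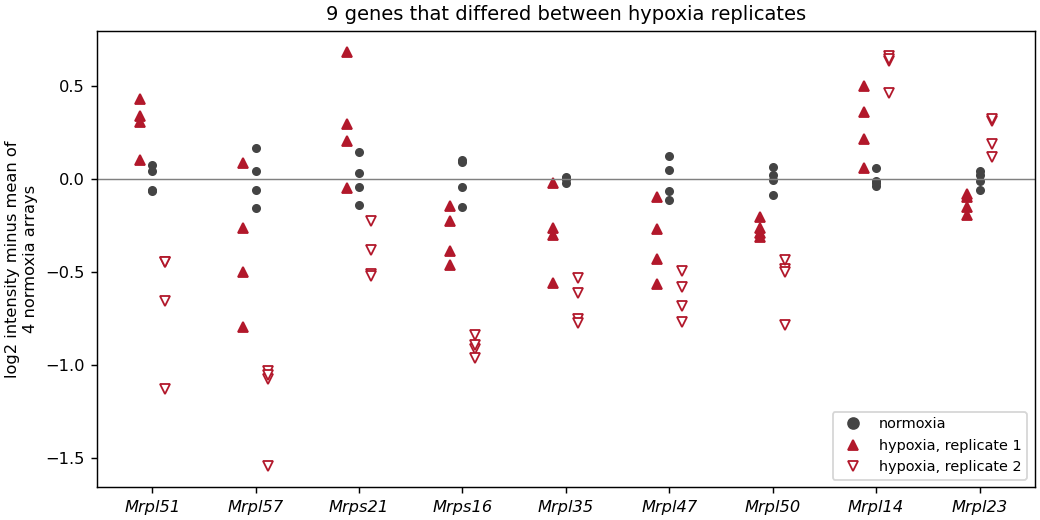
The 9 genes that differed between hypoxia replicates, as log2 intensity minus the gene's mean over the 4 normoxia arrays; grey circles are normoxia arrays, filled triangles hypoxia replicate 1 and open triangles hypoxia replicate 2, 4 arrays each. For Mrpl51 the replicate 1 triangles lie above 0 and the replicate 2 triangles below it; for Mrps16, Mrpl47 and Mrpl50 both kinds lie below 0.

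Other genes of mitochondrial translation were compared in the same hypoxia fit. Among mitoribosomal proteins with other symbols, 1 of 4 measured fell (15.9% of all genes) and 1 rose (14.4%). Ptcd3, a small-subunit protein that takes part in message binding, fell by 0.49 ± 0.10 (9.92 to 10.09 in normoxia and 9.22 to 9.81 in hypoxia). Dap3, a GTP-binding small-subunit protein also known for its role in apoptosis, rose by 0.44 ± 0.09, and its hypoxia arrays (12.15 to 12.44) all lay above its normoxia arrays (11.73 to 11.96). Chchd1 (-0.21) and Gadd45gip1 (-0.08) did not pass.

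Of 23 measured genes of mitoribosome assembly and rRNA modification, 10 fell (15.9% of all genes) and 2 rose (14.4%), with a median of -0.29. The GTPase gene Gtpbp10, which acts in large-subunit assembly, fell by 1.04 ± 0.11 and did not overlap between groups (7.18 to 7.35 in normoxia and 6.06 to 6.49 in hypoxia). Mrm3, a methyltransferase of the large rRNA, fell by 0.96 ± 0.14, and the pseudouridine synthase genes Rpusd3 and Trub2 fell by 0.78 ± 0.11 and 0.64 ± 0.09. Mrm3 was also lower in hypoxia replicate 2 than in replicate 1 (-0.38, adjusted p = 0.0294), and its change was -0.77 with the replicate as a block. Grsf1, an RNA-binding protein of mitochondrial RNA granules, rose by 0.28 ± 0.08. Fastk rose by 0.46 ± 0.14, and that call was lost with the replicate as a block (0.31, adjusted p = 0.0959).

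Of 15 translation factor genes, 5 fell (15.9% of all genes) and 0 rose (14.4%), with a median of -0.24. They were the release factors Mtrf1 (-0.53 ± 0.11) and Mtrf1l (-0.66 ± 0.23), the elongation factors Gfm1 (-0.46 ± 0.11) and Tsfm (-0.34 ± 0.10), and Oxa1l (-0.39 ± 0.13), which inserts new proteins into the inner membrane. Mtrf1l was not called with the block (-0.56, adjusted p = 0.115). Tufm, the factor that brings aminoacyl-tRNA, gave 0.01 ± 0.10. Of 16 genes of mitochondrial aminoacyl-tRNA synthesis 6 fell and 0 rose (median -0.22), against the same shares of all genes. Mars2, the methionyl-tRNA synthetase, fell by 1.40 ± 0.22 (7.83 to 8.02 in normoxia and 6.05 to 7.04 in hypoxia), Ears2 by 0.67 ± 0.12, Gatc by 0.66 ± 0.10 and Rars2 by 0.58 ± 0.10. The groups of arrays did not overlap in these 4, which had the smallest p of their list. All hypoxia arrays lay below all normoxia arrays in 13.2% of all genes. Mars2 and Ears2 were also lower in hypoxia replicate 2 than in replicate 1 (-0.75 and -0.32, adjusted p = 0.000582 and 0.0176). With the block their changes were -1.03 and -0.50, and both kept their calls.

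Of 19 genes of mitochondrial DNA, transcription and nuclear regulation, 6 fell (15.9% of all genes) and 1 rose (14.4%), with a median of -0.21. Pprc1, a coactivator related to PGC-1, fell by 1.11 ± 0.17 (10.52 to 10.76 in normoxia and 9.0 to 9.96 in hypoxia). It was also lower in hypoxia replicate 2 than in replicate 1 (-0.44, adjusted p = 0.0318), and its change was -0.89 with the block. Ppargc1b, which encodes PGC-1 beta, was called lower (adjusted p = 5.13e-05), at 6.41 to 6.65 in normoxia and 4.68 to 5.42 in hypoxia. It was detected on all 4 normoxia arrays but on 3 of 8 hypoxia arrays, so no size of its change is given. Tefm, a mitochondrial transcription elongation factor, fell by 0.64 ± 0.10. Mxi1, a Myc antagonist and known HIF target, rose by 2.27 ± 0.35, from 7.52 to 8.01 in normoxia to 8.26 to 10.66 in hypoxia. Nrf1 (0.00 ± 0.17), the ETS factor Gabpa (0.20 ± 0.14) and Tfam (-0.24 ± 0.11) did not pass. The medians of these 5 lists lay between -0.14 and -0.29, as the plot by list shows, against -0.0201 over all genes. No list was tested as a whole.

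**Figure D5:**
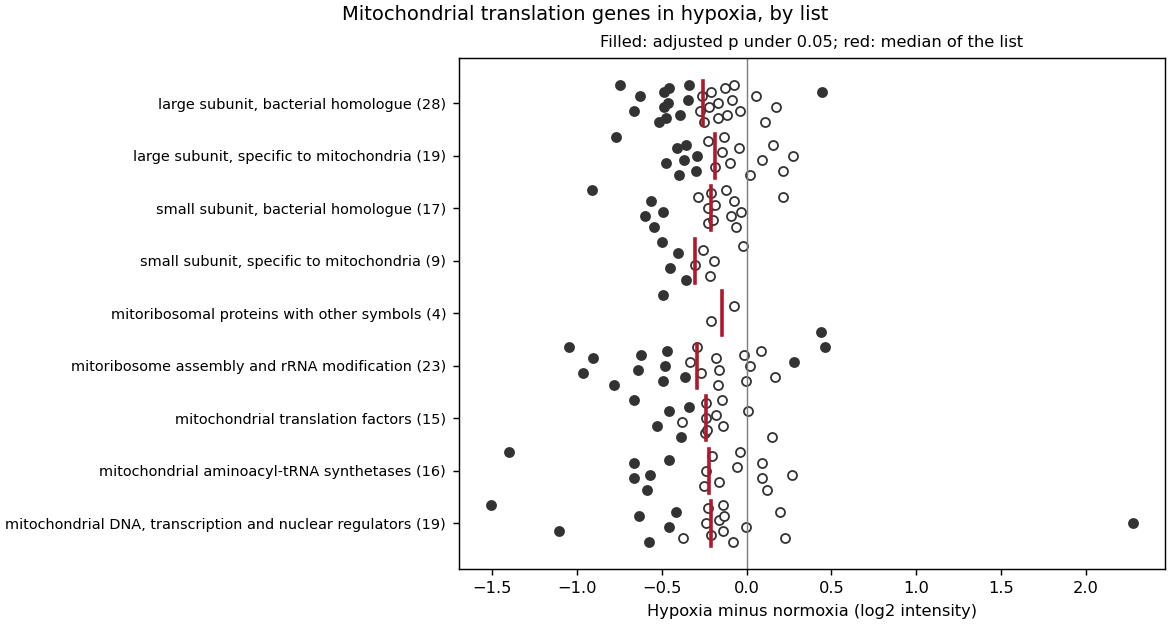
Log2 change in hypoxia of each gene in 9 lists of mitochondrial translation, with the number measured in brackets; filled points have an adjusted p under 0.05 and red bars are list medians. Each list has its median below 0, between -0.14 and -0.30, and the point far to the right is Mxi1.

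Promoter motifs were set beside the hypoxia calls within the family. The ETS core was in the promoters of 8 of the 27 decreased genes with a promoter (29.6%) and of 18 of the other 38 (47.4%). The hypoxia core was in 10 of the 27 (37.0%) and in 6 of the 38 (15.8%), where 30.4% of all tested genes held it. An E-box was in 4 of the 27 (Mrpl20, Mrpl36, Mrpl2 and Mrpl37) and in 1 of the 38 (Mrps18c). The numbers are small and no test was made of them.

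Both genes were measured in 16 of the head-to-head pairs, 1 of them within the family. Of the 15 neighbours outside the family 3 fell (20.0%, where 15.9% of all genes did) and 1 rose (6.67%, where 14.4% did). Both genes fell in 3 pairs. Mrpl43 and Twnk changed by -0.40 and -0.46, Mrps5 and Zfp661 by -0.49 and -0.61, and Mrpl57 and Ska3 by -0.77 and -0.35. Mrpl46 fell by 0.36, and its partner Mrps11 gave -0.23 (adjusted p = 0.114). Mrpl2 fell by 0.34 where Klc4, which starts 141 bases away, rose by 1.02 (adjusted p = 0.00118). Ndufb5, a respiratory complex I gene that faces Mrpl47, gave 0.03 (adjusted p = 0.81).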

How the data were processed

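The authors deposited a table of linear probe intensity, not normalized, with a detection p-value beside each value. The sources used here name no software for it. A processed table of linear intensity that the authors also deposited, made by steps not stated in the labels, served as an alternative only. Intensities were background-corrected and quantile normalized by neqc (limma 3.58.1, R 4.3.3, offset 16) and taken to log2. Of several detected probes, the brightest on average stood for the gene. Probe levels were not compared between genes. Genes were named from the platform annotation, and promoters came from RefSeq GRCm38.p6. Fits used lmFit and eBayes and were tested on simulated data. Members, lists and the rule for named genes (largest changes shared by all transfections, smallest p per comparison and per list) were chosen with earlier results of these data known. The text names others where a group is described. Replicate numbers come from the labels. The differences of hypoxia replicate 2 from replicate 1 were correlated between transfections, over 6 pairs. The correlations were 0.286 to 0.782 over all genes and 0.074 to 0.733 over the 73. In control, FOXA2 and HIF-1a cells the replicates also differ in slide, so replicate number and slide cannot be told apart there. Pairs with FOXA2+HIF-1a cells, whose replicates share a slide, gave 0.286 to 0.514 over all genes. All per-sample columns were used (0 left out). The number of arrays limits the precision.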

Additional observations from a re-analysis of the deposited data

How the results depend on the processing

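The count of decreases in hypoxia depended on the arrays and the scaling, and no value named in the text changed sign among those called. The 29 decreases became 20 with the replicate number as a block, 18 on replicate 1 arrays only, 10 on slide 1 only, 9 with a mean per group and 16 with median scaling, where the median of all genes was -0.08 and that of the family -0.31. Against replicate 2 hypoxia arrays only there were 41 decreases (27.2% of all genes, against 15.9% with all 12 arrays). The other alternatives (no or stricter detection filter, other background corrections, the deposited processed table, mean of probes, slide block, trended eBayes) gave 22 to 32. Leaving out each array gave 12 to 32. It was 12 without the normoxia array of FOXA2 or of FOXA2+HIF-1a, 13 without that of control, 16 without that of HIF-1a and 19 without control hypoxia replicate 2. Shares of all genes are not given here for slide 1 only, a mean per group, median scaling, the other alternatives or the left-out arrays. From these counts alone, a loss particular to the family cannot be told from a general loss of calls. The count of increases, 1 (14.4% of all genes), was 2 with the mean of probes. It was 0 on replicate 1 arrays only (12.9% of all genes), on slide 1 only and with a mean per group. Against replicate 2 hypoxia arrays only it was 4 (25.7% of all genes), and it was 0 to 3 with each array left out. Between hypoxia replicates the 7 lower and 2 higher became 4 and 0 with hypoxia arrays only, 0 were higher with median scaling, and with each array left out 4 to 6 were lower and 0 to 3 higher. The replicate block left the 0 calls of the transfection and within-transfection comparisons at 0, as did the other settings and each left-out array. The causes were not tested. Leaving out an array that is the only one of its group ends that group's own comparison, which was then not computed. With 1 normoxia array per transfection, small differences between responses cannot be seen.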
